A study of Rattus norvegicus with 8 samples.

Results

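Cleavage and polyadenylation gives a messenger RNA its 3′ end, and many long non-coding RNAs end in the same way. Whole transcriptome termini site sequencing (WTTS-seq) counts reads at these 3′ ends, so each row of the table is an alternative polyadenylation (APA) site with its read count in every library. Most sites are assigned to an annotated gene, and those that are not can lie past the annotated end of a gene, in an RNA that the annotation lacks, or in a repeated or poorly assembled stretch of the genome. The sites described here are the abundant ones among them. They were selected on their read count and on the gene field alone, as sites with no assigned gene, outside the mitochondrial chromosome, and with at least 300 reads summed over the 8 libraries. There were 436 such sites among 73922 sites in all and 8009 sites without a gene. Together they held 1346691 of 13341135 reads (10.1%), while the other 7572 nuclear sites without a gene held 4.05%. The total count chose the sites and is given as a description.

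The libraries came from 8 adult male rats of the outbred Long-Evans strain, with the hypothalamus as the tissue. The obesity group of 4 rats ate a high fat diet without restriction, and the control group of 4 rats ate standard chow. Tissue was taken after 36 days, and the labels name the disease state of the first group as diet-induced obesity. Weights of the rats were not analysed here. Each group has libraries numbered 1 to 4, and the labels do not say what libraries of the same number share. Library totals ran from 1417531 to 1957726 reads. Sites of the table without reads numbered 14788 in control library 1 and 10659 in obesity library 1. The other libraries had 4062 to 6622 such sites. The part of this in the results below was not tested.

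The labelled tissue was checked by its markers. All 10 hypothalamic marker genes, among them Avp, Oxt and Pmch, had sites, with a summed level of 1011 to 1423 CPM (reads scaled to the normalized size of the library) in control and 741 to 1122 in obesity. Markers of neighbouring tissues varied more between obesity libraries. The 3 anterior pituitary markers with sites summed to between 23.2 and 45.3 CPM in control and between 6.83 and 151 CPM in obesity, 1 of them, Pomc, being a hypothalamic marker as well, and Prl had no listed site. Ttr, the only choroid plexus marker of 3 with a site, ranged from 0 to 1.29 and from 0 to 82.2 CPM. The 2 red blood cell markers with sites, Hba1 and Alas2, ranged from 16.6 to 40.2 and from 11.4 to 53.6 CPM. The 3 thalamic markers ranged from 50.9 to 111 and from 18.2 to 122 CPM. Their part in the results below was not tested. In such bulk tissue, fewer cells of a type and less RNA per cell cannot be told apart.

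The counts were unevenly spread over the 436 sites. The median site had 477.5 reads, with quartiles of 369 and 765, whereas 77 sites had at least 1000 reads, 7 had over 10000 and 3 had over 100000. Every library held reads at 433 of the sites (99.3%). That was the case for 55.2% of all sites in the table and 98.6% of sites with a gene and at least 300 reads. The limit of 300 reads favours this. The sites spanned a median of 24 bases, against 13 for all sites and 26 for sites with a gene and at least 300 reads. The plus strand held 208 sites and the minus strand 228. Chromosome 1 held 106 sites, followed by chromosome 6 with 35, chromosome 7 with 30, chromosome 11 with 27 and chromosome 4 with 26, and 2 sites lay on unplaced scaffolds. Just inside the limit were sites on chromosome 18 (plus strand, 81754919 to 81754939) and chromosome 1 (minus strand, 122177299 to 122177312), each with 300 reads. Just outside were sites on chromosome 6 (plus strand, 97233066 to 97233089) and chromosome 12 (plus strand, 22607368 to 22607403), each with 299 reads. All coordinates are on Rnor_6.0 as deposited.

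Position relative to genes was taken from the nearest sites with a gene in the same table. None of the 436 sites lay between sites of a gene on its own strand, and 2 lay between sites of a gene on the other strand. The nearest gene site before them on the same strand was up to 2 kb away for 40 sites, 2 to 10 kb for 102, 10 to 100 kb for 137 and over 100 kb for 153, and 4 sites had none before them. The median distance was 39.6 kb, against 111 kb for the less abundant sites without a gene. The preceding gene was protein coding for 39 of the 40 closest sites and for 126 of the 153 farthest.

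The largest share of the reads came from a cluster on the minus strand of chromosome 1. Sites without a gene at most 5 kb apart on a strand were chained into a locus, and this locus ran from 221152322 to 221158634 with 59 sites, of which 17 reached 300 reads. Those 17 sites held 63.5% of all reads at the 436 sites, and 2 sites held 95.0% of the reads of the locus. On its strand it lay 54.7 kb after a site of Frmd8. As background, the region next to this gene in mammals holds Neat1 and Malat1, abundant nuclear long non-coding RNAs of paraspeckles and nuclear speckles. Which RNA gave the reads was not tested.

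The most abundant site of the series (221158015 to 221158317) had 100881, 57628, 50084 and 73515 reads in the control libraries, in the order of their numbers. The obesity libraries had 143133, 48549, 117112 and 96328. The groups overlapped, and the obesity library was higher than the control library of the same number in 4 of 4 pairs by CPM. The mean was 43787 ± 10849 CPM for control and 56984 ± 19482 CPM for obesity (SD, n = 4), and the log2 fold change (log2FC, obesity minus control) was 0.38 (SE 0.27, edgeR adjusted p 1.00). In a fit with the library number as a block, the log2FC was 0.34 (edgeR unadjusted p 0.0208, adjusted p 0.709). The next site in the direction of the strand (221157198 to 221157647) had its listed position 751 bases farther on and had 29439, 3518, 13975 and 7296 reads in control against 43968, 2834, 18464 and 10336 in obesity. It was highest in both libraries numbered 1 and lowest in both numbered 2.

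Another abundant site of the cluster (221154403 to 221154513) went the other way between these numbers. It had 5324 reads in control library 2 and 3668 in obesity library 2, and 383 to 485 reads in each of the other 6 libraries. A smaller site at 221153799 to 221153811 had 153 and 135 reads in the libraries numbered 2 and 4 to 39 elsewhere. In contrast, the site at 221156842 to 221156873, with 4414 reads, stayed within 372 to 691 reads per library. Of the 17 sites, 11 differed with the library number at an adjusted p under 0.1 in the test described below, against 8.66% of all sites and 27.5% of sites with a gene and at least 300 reads.

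**Figure D1:**
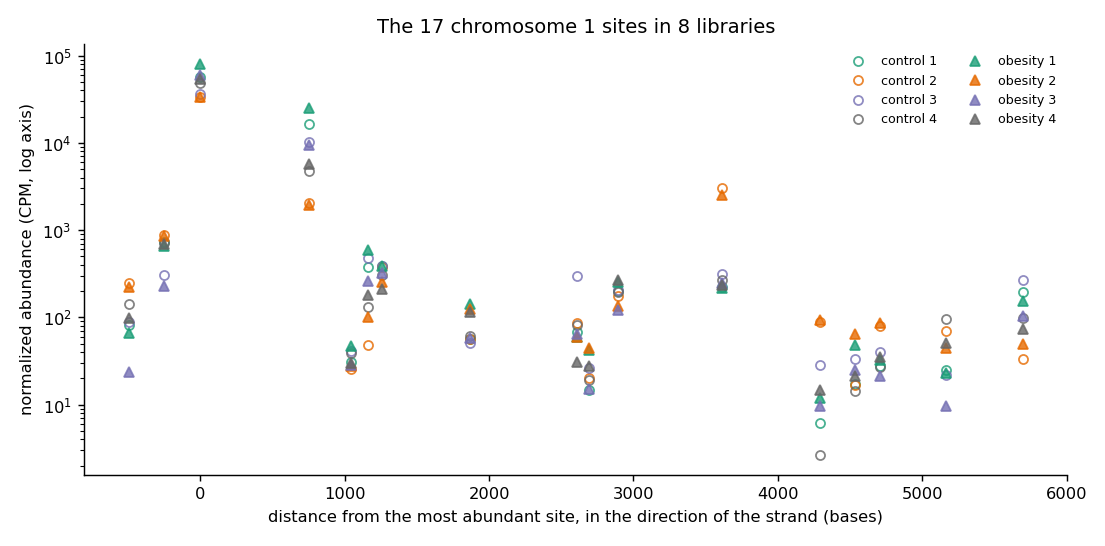
Normalized abundance (CPM, log axis) of the 17 abundant sites of the chromosome 1 cluster against their distance in bases from the most abundant site, positive in the direction of the strand; open circles are the 4 control and filled triangles the 4 obesity libraries, coloured by library number. The site at 751 bases is lowest in both libraries numbered 2, and the site at 3613 bases is high in those libraries alone.

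Between diets, the 17 sites moved both ways, with 9 of 17 log2 fold changes above 0 and a median of 0.01. The site at 221156173 to 221156347 had 100, 99, 69 and 93 reads in control and 249, 182, 116 and 208 in obesity, with a log2FC of 0.97 (SE 0.33, unadjusted p 0.0113, edgeR adjusted p 1.00). The site at 221155442 to 221155510 had 122, 148, 411 and 125 reads in control and 106, 87, 129 and 55 in obesity, with a log2FC of -1.31 (SE 0.47, edgeR adjusted p 1.00). Control library 3 held the highest value there.

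The 42 sites of the cluster that did not reach 300 reads were looked at after their values were seen, so no test was made of them as a list. They held 4114 reads, and 35 of the 42 had a log2 fold change above 0, with a median of 1.51, against 0.08 over all 7572 less abundant sites without a gene. Summed over these sites, control libraries 1 to 4 stood at 131, 208, 281 and 159 CPM, and obesity libraries 1 to 4 stood at 621, 497, 237 and 344 CPM. The groups overlapped, since control library 3 lay above obesity library 3. The site at 221154702 to 221154804 had 15, 7, 14 and 9 reads in control against 95, 59, 36 and 58 in obesity, with a log2FC of 2.33 (SE 0.48, unadjusted p 2.41e-04, edgeR adjusted p 1.00). Another, at 221153045 to 221153101, had 8, 3, 7 and 4 reads against 40, 29, 11 and 37. At 5 of the 42 sites the groups did not overlap with obesity higher, and at 0 with obesity lower. Over all sites such separation occurred at 1.43% with obesity higher and 1.69% with obesity lower. No listed site had under 30 reads in all, and that floor can favour sites that are high in a single group. Among the 5, the site at 221153475 to 221153499 had 0, 0, 1 and 0 reads in control and 15, 6, 4 and 5 in obesity. The part of the floor in these counts was not tested.

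Whether the abundant sites without a gene took a different part of the transcriptome in obesity was asked with the share of each library's reads. In control libraries 1 to 4 the share at all 436 sites was 11.3, 7.31, 9.50 and 9.32%, and obesity libraries 1 to 4 stood at 14.2, 7.84, 11.0 and 9.64%. Group means were 9.36 ± 1.63% for control and 10.7 ± 2.68% for obesity (SD, n = 4), and the groups did not differ beyond their spread (2-sided exact permutation test over 70 arrangements, p = 0.4, adjusted over 4 shares 0.514). The smallest p this design allows is 0.0286. The obesity library was above the control library of its number in 4 of 4 pairs, and a paired exact sign-flip permutation test gave p = 0.125, the smallest that 4 pairs allow. Without obesity library 1 the difference of 1.31 percentage points became 0.13, and it became 0.63 without control library 2 and 2.25 without obesity library 2. The share at the 17 chromosome 1 sites was 5.53 ± 1.66% for control and 7.08 ± 2.88% for obesity (exact permutation p = 0.4, adjusted 0.514, and p = 0.25 in the paired test). That difference of 1.55 percentage points became 0.27 without obesity library 1 and 2.33 to 2.58 without control library 1 or obesity library 2. The other 419 sites took 3.83 ± 0.66% and 3.59 ± 0.34% (exact permutation p = 0.514, adjusted 0.514), and without control library 3 this difference changed its sign to 0.057 percentage points. Within the cluster, the most abundant site took 79.6 ± 6.28% and 82.4 ± 5.49% of the reads of the 17 sites (exact permutation p = 0.514, adjusted 0.514).

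**Figure D2:**
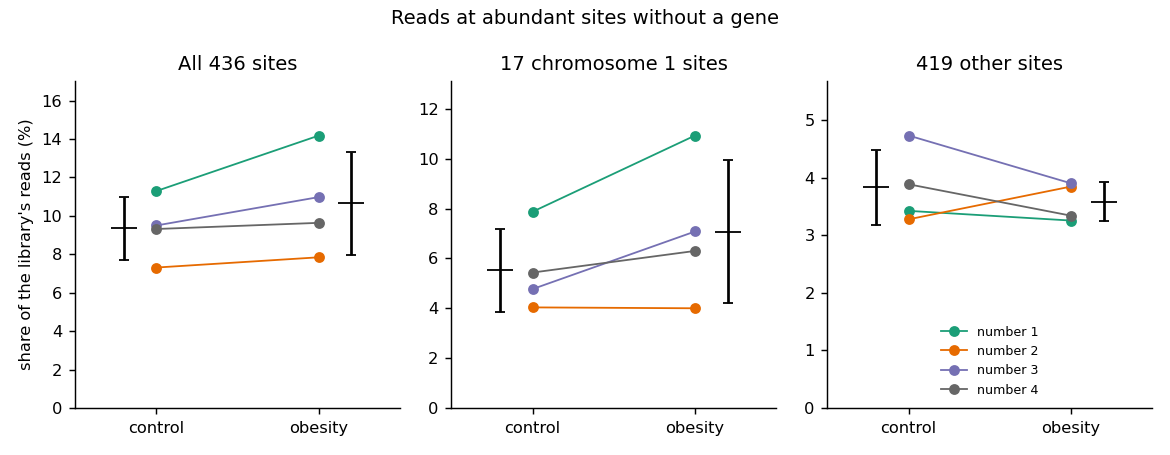
Share of each library's reads (%, from 0) at all 436 sites, at the 17 chromosome 1 sites and at the 419 others, as points joined between control and obesity libraries of the same number, with black marks for the group mean and SD (n = 4). Libraries numbered 1 lie highest and those numbered 2 lowest in the first panel, in both groups.

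The question for single sites was whether their abundance differed between diet-induced obesity and control. In the fit over all 73922 sites, 1 of the 436 sites passed an adjusted p of 0.1, and 0.00135% of all sites did, which is the same site. At an unadjusted p under 0.01, 4 of the 436 were higher and 4 lower (0.917% each), against 0.289% of all sites higher and 0.212% lower. Sites with a gene and at least 300 reads, which are closer to these sites in depth, stood at 0.506% and 0.689%. The limit of 300 reads can favour such calls, since 3 of the 8, on chromosomes X, 6 and 17, had under 150 reads in the group where they were lower, as had 88 of all 436 sites. With the library number as a block, the counts rose to 19 higher (4.36%) and 20 lower (4.59%), against 0.702% and 0.94% of all sites and 2.17% and 6.20% of sites with a gene and at least 300 reads. Without the block, the total of 8 became 15 on leaving out obesity library 2, and 5, 4 and 3 on leaving out control library 3, obesity library 3 and obesity library 4. Groups did not overlap at 9 of the 436 sites with obesity higher and at 13 with obesity lower (2.06% and 2.98%), against 1.43% and 1.69% of all sites and 0.932% and 2.92% of sites with a gene and at least 300 reads. The median log2FC of the 436 sites was 0.05, as it was over all sites. Over sites with a gene and at least 300 reads it was -0.13. Of the 436 sites, 52.8% had a log2FC above 0, against 52.4% of all sites and 39.8% of those gene sites.

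The site that passed lay on chromosome 14 (plus strand, 46517709 to 46517777). Obesity libraries 1 to 4 held 1558, 658, 495 and 746 reads there, and the control libraries held 101, 39, 81 and 68 in the same order. Every obesity library lay above every control library, and by a wide margin. The log2 fold change was 3.45 (SE 0.44, edgeR adjusted p 0.0937), and with the library number as a block it was 3.40 (adjusted p 8.59e-08). Leaving out any library other than obesity library 3 moved the adjusted p to between 0.204 and 1.00, with log2 fold changes of 3.02 to 3.61. Keeping only sites of higher count moved the adjusted p to 0.115. The edgeR unadjusted p was 1.27e-06 with all libraries, and 8.63e-07 to 1.93e-05 on leaving out a library. The Wald test of DESeq2 gave an adjusted p of 1.52e-09.

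This site belonged to a locus of 7 sites, 4 of them abundant, that ended 118 kb before a site of Rn18s, which encodes 18S ribosomal RNA. The most abundant site of the locus (46525761 to 46525847) had 4641, 2184, 5972 and 3125 reads in control and 2857, 3006, 3974 and 2804 in obesity, with a log2FC of -0.50 (SE 0.33, edgeR adjusted p 1.00). The called site was 1.36 to 2.18% as abundant as that one in the control libraries and 12.5 to 54.5% in the obesity libraries. Another site of the locus (46521805 to 46521930) had 55, 58, 64 and 47 reads in control and 126, 120, 70 and 109 in obesity, a log2FC of 0.82 (SE 0.36, unadjusted p 0.0405, edgeR adjusted p 1.00). The fourth (46522168 to 46522261) had 118 to 218 reads in each library, and its groups overlapped.

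The ribosomal RNA sites after the locus are set beside it, and were chosen after their values were seen. The main Rn45s site (46655140 to 46655334), from the gene of the ribosomal RNA precursor, had 5348, 3122, 7115 and 4438 reads in control and 3539, 4057, 3887 and 3559 in obesity. Per read of that site, the most abundant site without a gene had 0.700 to 0.868 reads in the control libraries and 0.741 to 1.02 in the obesity libraries. The main Rn18s site (46643840 to 46644107) had a wider ratio, from 0.293 to 1.35 over the 8 libraries. A small Rn45s site (46649131 to 46649153) had 5, 8, 6 and 17 reads in control and 61, 27, 18 and 31 in obesity, a log2FC of 1.78 (SE 0.58, unadjusted p 0.00800, edgeR adjusted p 1.00). Ribosomal DNA is repeated in the genome, so how reads were divided between copies is uncertain.

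**Figure D3:**
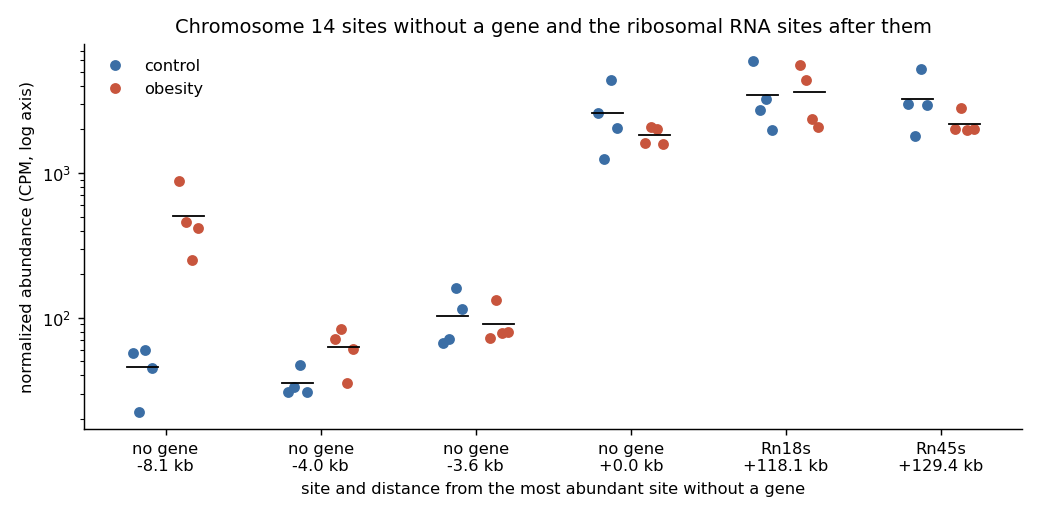
Normalized abundance (CPM, log axis) of the 4 abundant chromosome 14 sites without a gene and of the main Rn18s and Rn45s sites, placed in order and labelled with their distance in kb from the most abundant site without a gene; points are libraries, blue for control and red for obesity, and black lines are group means (n = 4). The 8 libraries separate by group at the first site alone.

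The other 5 higher sites with the smallest p did not pass the adjustment (edgeR adjusted p 1.00 for each). On chromosome 1 (minus strand, 79871846 to 79871852), 484 of 910 reads came from obesity library 1. The other obesity libraries had 54, 131 and 91 reads and the controls 34, 57, 29 and 30, and the log2FC was 2.20 (SE 0.57), or 1.14 without obesity library 1. The neighbouring site (79871895 to 79871901) had 145, 69, 141 and 96 reads in obesity and 45, 82, 30 and 68 in control. These sites lay 98.2 kb after Rsph6a. On chromosome 6 (minus strand, 133870519 to 133870521), 3 obesity libraries had 102 to 153 reads and obesity library 2 had 25, against 55, 24, 12 and 22 in control (log2FC 1.63, SE 0.51). The X chromosome site (minus strand, 76309346 to 76309348), 8.45 kb before the microRNA gene Mir384, had 65, 40, 67 and 63 reads in obesity and 9, 26, 22 and 20 in control, without overlap (1.44, SE 0.43). On chromosome 17 (minus strand, 78064116 to 78064126) the reads were 97, 40, 107 and 120 against 53, 37, 23 and 40, and the groups overlapped by CPM (1.11, SE 0.39). The fifth was the chromosome 1 site at 221156173 given above.

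At the 6 lower sites with the smallest p, no obesity library reached the lowest control library by CPM, and none passed the adjustment (edgeR adjusted p 1.00 for each). The site on chromosome 7 (minus strand, 92991611 to 92991626) lay 3.79 kb after Samd12 and had 173, 91, 107 and 65 reads in control and 52, 40, 71 and 40 in obesity (log2FC -1.23, SE 0.37). On chromosome 20 (plus strand, 41104256 to 41104306), 0.864 kb after Tspyl4 and 4.52 kb before Nt5dc1, there were 275, 159, 380 and 294 reads against 145, 131, 170 and 127 (-1.12, SE 0.35). The site on chromosome 2 (plus strand, 141982277 to 141982381) had 760, 456, 346 and 483 reads against 362, 228, 295 and 308 (-0.88, SE 0.28).

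A site 1.26 kb after Ntrk2, the gene of the receptor for brain-derived neurotrophic factor, lay on chromosome 17 (minus strand, 5931687 to 5931699). Its control libraries had 84, 56, 52 and 32 reads and its obesity libraries 31, 19, 32 and 10 (log2FC -1.40, SE 0.45). On chromosome 7, a plus-strand site at 99525892 to 99525896 had 94, 82, 135 and 98 reads against 56, 58, 58 and 20 (-1.23, SE 0.42). The minus-strand site at 83989468 to 83989490, 2710 kb after the nearest gene site of Csmd3, had 531, 376, 417 and 439 reads against 270, 277, 343 and 247 (-0.76, SE 0.27).

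**Figure D4:**
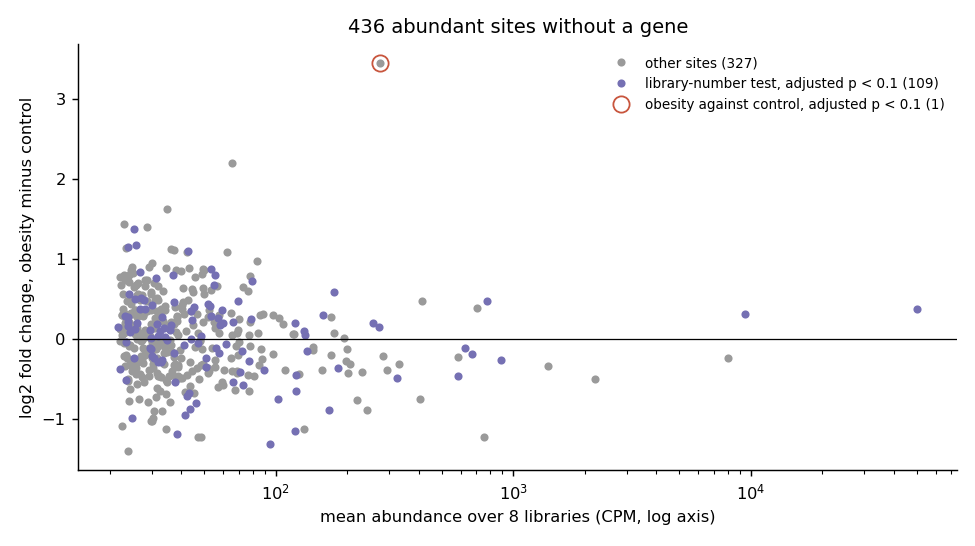
Log2 fold change of obesity minus control (edgeR, without the block) against mean CPM over 8 libraries (log axis) for the 436 sites; violet points differ with the library number at an adjusted p under 0.1 and the red ring marks the site past an adjusted p of 0.1 between diets. Most sites lie between -1 and 1, and the ringed site stands at 3.45.

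The library number was tested after its pattern in the data had been seen, with the 3 number terms of the blocked fit. At an adjusted p under 0.1 it marked 109 of the 436 sites (25.0%), against 8.66% of all sites and 27.5% of sites with a gene and at least 300 reads. The share was thus close to that of gene sites of like depth. At the 109 sites, the mean CPM of the highest number was a median of 4.08 times that of the lowest, and it was 1.79 times at the other sites. The sites were split by the test of that same difference, so the ratios are a description. Number 1 was the lowest at 48 of the 109 sites and the highest at 34, and number 4 was the lowest at 7.

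Several of these sites differed many-fold by number. The site on chromosome 20 (plus strand, 10955045 to 10955073), 23.3 kb after Pdxk, had 120 and 277 reads in the libraries numbered 3, 9 and 26 in those numbered 4, and 0 to 3 in the other 4 libraries. Its neighbour on the strand (10954353 to 10954370) had 230 to 445 reads in every library. On chromosome 10 (plus strand, 91878911 to 91878931), libraries numbered 1 had 657 and 779 reads, those numbered 2 had 25 and 20, and the other 4 had 94 to 308. On chromosome 15 (minus strand, 59987835 to 59987853), libraries numbered 4 had 184 and 188 reads, those numbered 1 had 2 and 5, and the other 4 had 6 to 54.

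Near Elavl3, the gene of a neuronal RNA-binding protein, a pair of sites lay 10 bases apart on chromosome 8 (minus strand), 0.936 and 0.970 kb after the nearest site of the gene. The farther one (23027248 to 23027270) had 153 and 227 reads in the libraries numbered 3 and 0 to 9 in the other 6. The nearer one (23027281 to 23027304) had its lowest control count, 100, and its lowest obesity count, 55, in those same libraries. The farther site took 60.5% and 80.5% of the reads of the pair in libraries numbered 3, and 0 to 4.69% elsewhere. Together the pair had 96 to 350 reads per library.

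**Figure D5:**
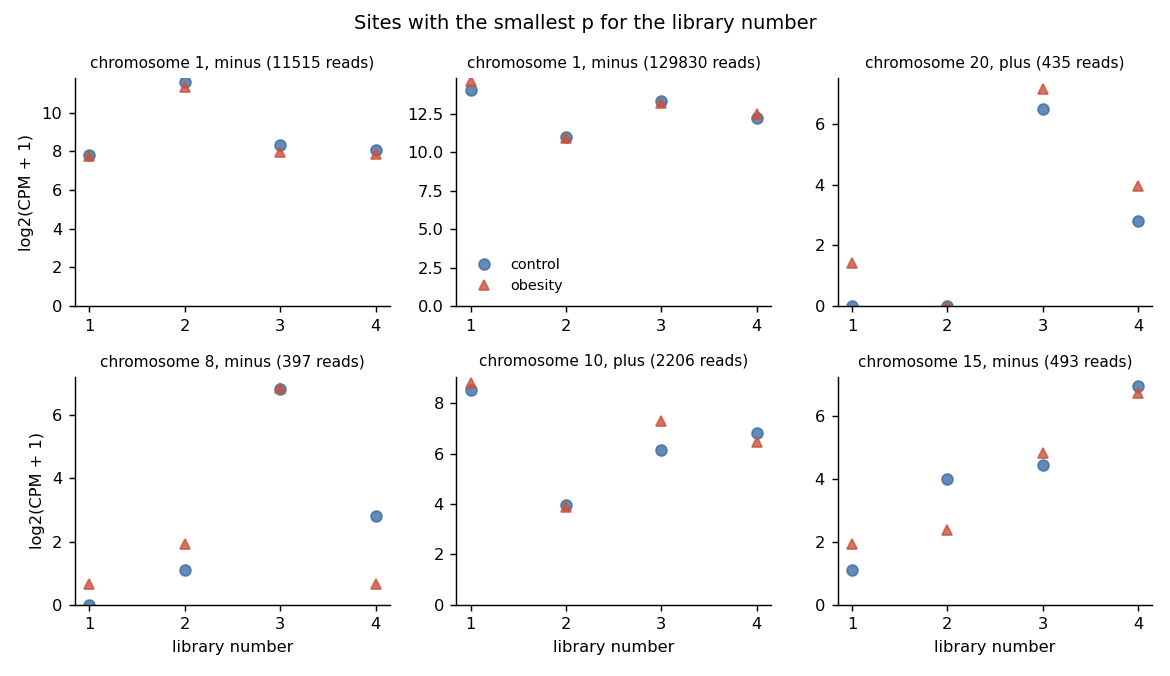
Log2(CPM + 1) at the 6 sites with the smallest p for the library number, plotted by library number (which has no order) with blue circles for control and red triangles for obesity. The libraries of a number mostly lie close together in both groups. The chromosome 8 site is high in number 3 alone, while its libraries numbered 4 lie apart, with 9 reads in control and 1 in obesity.

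Outside chromosome 1 minus, the most abundant site lay on the plus strand of chromosome 1 (11971756 to 11971973), with 104068 reads. Its control libraries had 9492, 10561, 18222 and 15252 reads and its obesity libraries 9209, 14744, 15394 and 11194. The groups overlapped, and the log2FC was -0.24 (SE 0.31, edgeR adjusted p 1.00). The nearest gene site after it on the strand was that of Mcc, 56.7 kb on, and on the other strand lay LOC310926 at 58.8 kb. Another plus-strand site (92608676 to 92608686), between Ankrd27 and Tshz3, had 18599 reads, from 1510 to 3669 per library, with a log2FC of -0.34 (SE 0.28, edgeR adjusted p 1.00). With the library number as a block its log2FC was -0.38 (edgeR unadjusted p 0.0453, adjusted p 0.805).

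A chromosome 7 site (plus strand, 119219948 to 119219960) lay 7.91 kb from a site of Cacng2, a regulator of glutamate receptors, on the other strand. It had 1613, 748, 622 and 1232 reads in control and 2028, 822, 1877 and 1710 in obesity, higher in 4 of 4 pairs, and the log2FC was 0.48 (SE 0.32, edgeR adjusted p 1.00). With the library number as a block it was 0.51 (edgeR unadjusted p 0.0129, adjusted p 0.643). On chromosome 18 (minus strand, 70733199 to 70733234), near Acaa2 and Myo5b of the other strand, control libraries had 858 to 1065 reads and obesity libraries 1075 to 1936 (0.38, SE 0.26, edgeR adjusted p 1.00). By CPM the groups overlapped, with control library 3 at 782 above obesity library 4 at 603. The chromosome 6 site at 30641327 to 30641357 (plus strand), 2.08 kb after LOC257642, had 3754 of its 9180 reads in control library 3, and 368 to 1171 in each of the others. A chromosome 7 site at 99523065 to 99523119 (plus strand) ranged from 525 to 1821 reads over control libraries and from 705 to 1791 over obesity libraries (-0.19, SE 0.40, edgeR adjusted p 1.00).

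The largest locus by length was on chromosome 6, in the imprinted Dlk1-Dio3 region. Here, as background, long non-coding RNAs expressed from the maternal chromosome host arrays of small nucleolar RNAs and microRNAs. The locus ran over 74.3 kb of the plus strand (133736218 to 133810532) with 63 sites, 16 of them abundant, and 24650 reads. It began 1.00 kb after a site of Mir1188 and 45.1 kb after the last of 84 sites of the Gtl2-like gene RGD1566401, and ended 63.1 kb before Mir376a. A site of Mir370 lay inside it. In the RefSeq annotation of a later assembly, GRCr8, the interval from Mir1188 to Mir376a holds 148 annotated genes, of which 84 are small nucleolar RNAs, 19 microRNAs and 2 long non-coding RNAs.

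Its most abundant site (133759989 to 133760041) had 654, 1249, 1436 and 860 reads in control and 521, 1129, 1155 and 547 in obesity, a log2FC of -0.46 (SE 0.38, edgeR adjusted p 1.00). It was higher in libraries numbered 2 and 3 in both groups. The second (133779893 to 133779930) had 123, 221, 296 and 224 reads against 256, 288, 568 and 379 (0.59, SE 0.36, edgeR adjusted p 1.00). A site at 133790984 to 133791018 had 117 and 113 reads in libraries numbered 2 and 3 to 28 in the others. Of the 16 sites, 11 had a log2 fold change above 0, against 52.4% of all sites and 39.8% of sites with a gene and at least 300 reads. Of the same 16, 7 differed with the library number, against 8.66% of all sites and 27.5% of sites with a gene and at least 300 reads. Summed, the locus stood at 1814 ± 503 CPM for control and 1896 ± 350 CPM for obesity (SD, n = 4), with a log2FC of 0.06 (SE 0.22, edgeR adjusted p 1.00).

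Since 1 RNA can end at several neighbouring sites, the counts were also summed. The 436 sites fell into 339 loci, of which 292 held 1 abundant site, 31 held 2 and 9 held 3. In the fit over 17268 genes and loci, 0 of the 339 passed an adjusted p of 0.1 (0% of all), and 36 had an unadjusted p under 0.05, against 5.01% of all genes and loci. The Wald test of DESeq2 passed 3 of them, against 0.0695% of all. At an unadjusted p under 0.01, 4 loci were higher and 8 lower in obesity, against 0.405% and 0.382% of all genes and loci. With the library number as a block there were 16 higher and 19 lower, against 1.15% and 1.82% of all genes and loci, and 0 passed the adjustment. These shares are not matched in depth. Each of the 339 loci holds a site of at least 300 reads, whereas the 17268 genes and loci include others with fewer. No share at like depth was computed for loci. Without the block, the total of 12 became 31 on leaving out obesity library 2 and 7 on leaving out control library 2.

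The smallest p belonged to the locus on chromosome 7 after Samd12 (minus strand, 92987519 to 92991626, 5 sites). It had 220, 170, 135 and 136 reads in control and 63, 71, 108 and 77 in obesity, and fell by 1.15 on the log2 scale (SE 0.23, unadjusted p 1.66e-04, edgeR adjusted p 0.949, DESeq2 adjusted p 0.0246). The locus at 83989468 to 83989612 of the same strand stood at 286 ± 35.4 CPM in control and 168 ± 22.9 in obesity (-0.77, SE 0.19, edgeR adjusted p 0.949, DESeq2 adjusted p 0.0977). The chromosome 20 locus after Tspyl4 stood at 187 ± 67.4 and 93.1 ± 14.1 CPM (-1.01, SE 0.26, edgeR adjusted p 0.949). Of those higher, the chromosome 1 locus at 79871846 to 79871901 stood at 57.5 ± 17.1 and 176 ± 137 CPM (1.61, SE 0.42, edgeR adjusted p 0.949, DESeq2 adjusted p 0.0977), and its log2FC was 0.91 without obesity library 1. The chromosome 6 site at 133870519 and the chromosome 17 locus at 78064116 to 78064326 followed, at 1.63 (SE 0.45) and 1.02 (SE 0.33), each with an edgeR adjusted p of 0.949.

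Among the loci with most abundant sites, the whole chromosome 1 cluster stood at 55286 ± 16402 CPM in control and 71906 ± 31803 in obesity (log2FC 0.38, SE 0.28, edgeR adjusted p 0.971, unadjusted p 0.19). With the library number as a block its unadjusted p was 0.00629 and its edgeR adjusted p 0.302. The chromosome 14 locus stood at 2757 ± 1342 and 2522 ± 349 CPM (-0.13, SE 0.27, edgeR adjusted p 0.990), so that the change of its first site did not show in its sum. A locus of 6 abundant sites on chromosome 1 (plus strand, 220891288 to 220893283) lay 17.2 kb after Snx32. Its site at 220891899 to 220892018 had 403 of 786 reads in obesity library 3, 95 in control library 3 and 24 to 78 in the other 6 libraries. The locus stood at 273 ± 41.4 and 347 ± 138 CPM (0.35, SE 0.25, edgeR adjusted p 0.971). Of 4 loci with 4 abundant sites, the 2 with most reads were the chromosome 14 locus and one on chromosome 2 (plus strand, 221691016 to 221739575). The latter lay 30.9 kb after Mir137, which encodes a brain-enriched microRNA, and stood at 420 ± 54.3 and 471 ± 64.2 CPM (0.16, SE 0.18, edgeR adjusted p 0.980).

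The 40 sites within 2 kb of a preceding gene site were set apart by position, after the data had been seen. Their median log2 fold change was -0.32, with 32 of 40 below 0, against -0.13 for sites with a gene and at least 300 reads and 0.16 for the sites over 100 kb away. Of them, 0 were higher and 2 lower at an unadjusted p under 0.01 (edgeR), against 0.289% and 0.212% of all sites and 0.506% and 0.689% of sites with a gene and at least 300 reads. The most abundant were a site 0.141 kb after Lhfpl4 (chromosome 4, minus strand, 145115339 to 145115360) and one 0.256 kb after Zbtb20 (chromosome 11, minus strand, 62012863 to 62012891), which encodes a transcription factor. The first had 519, 471, 186 and 257 reads in control and 247, 266, 152 and 120 in obesity (-0.89, SE 0.38, edgeR adjusted p 1.00). The second had 357 and 515 reads in libraries numbered 4 and 116 to 196 in the others.

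These sites held a median of 31.4% as many reads as the gene before them, whereas those over 100 kb away held a median of 299%. The Pearson correlation of log2(CPM + 1) with the preceding gene over the 8 libraries, a description that rests on shared libraries, had a median of 0.12 at up to 2 kb and 0.13 at 2 to 10 kb. It was -0.02 at 10 to 100 kb and -0.03 beyond. The site 0.842 kb after Tmod2, which encodes a neuronal tropomodulin, had an r of 0.85, and the Lhfpl4 site had an r of -0.71. Across the 8 libraries, the sites most like the most abundant chromosome 1 site were on chromosome 5 (plus strand, 74804757 to 74804789, r = 0.95), chromosome 7 (the site near Cacng2, r = 0.94), chromosome 14 (minus strand, 85205800 to 85205810, r = 0.94), chromosome 18 (minus strand, 56296786 to 56296790, r = 0.92) and chromosome 1 (minus strand, 3178148 to 3178156, r = 0.92). The median r over the 419 sites outside the cluster was 0.03. In all 5 the libraries numbered 1 were above those numbered 2 in both groups. The chromosome 1 site they were chosen to resemble had the same order, so the shared order is not a separate result.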

How the data were processed

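WTTS-seq was applied to hypothalamus RNA of 8 rats, 1 library a rat, 4 per group. The deposited table holds raw read counts per APA site. Per the labels, the processing of the authors used Bowtie2 2.2.3 and Rnor_6.0. The role of the tool, the clustering of reads into sites and the assignment to genes are not given in the sources used here. No site had under 30 reads in all, and 1 line without a site was left out of totals and tests. Marks in the symbol field were ignored. The paper linked to the series describes another exposure, so only labels were used. No genome of the build was used here, so sequence next to the sites was not checked.

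Site counts were tested with edgeR 4.0.16 (quasi-likelihood F test, robust fit, TMM scaling, R 4.3.3) over all sites, with Benjamini-Hochberg adjustment and a threshold of 0.1. The gene and locus fit used summed counts, with a chaining gap of 5 kb. Shares of reads were compared by exact permutation. DESeq2 1.42.0 size factors and Wald test, filterByExpr, other read limits, other gaps and leaving out libraries were alternatives. Named sites were the 10 with most reads, the 6 higher and 6 lower with the smallest p, those past the threshold, the 5 most concentrated in 1 library, those beside the limit, and the loci with the smallest p or most sites. Others were chosen after their values were seen. The sites and lists were chosen with earlier results of these data known. Gene neighbours come from the table, and GRCr8 RefSeq gave names between neighbours.

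Over all sites, deviations from the mean log2 CPM of the group correlated at 0.254 to 0.364 between libraries of the same number. Between libraries of other numbers they correlated at -0.197 to -0.0399. Over the abundant sites without a gene alone, the values were 0.508 to 0.682 and -0.339 to 0.0693. Taking deviations from the group mean itself lowers the values between other numbers, so their sign is not read. Each of the 4 pairs was above 0.1, the limit set for taking the numbers to mark pairs, though no label says what they share. The main fits, the unpaired permutation tests and the checks that leave out a library do not use the pairs. Paired values stand beside results whose counts or calls they move, and beside some single sites. Chi-square per site between any 2 libraries was at least 2.86, above sampling noise, so all were counted. Reads carry no stated molecular identifiers, and nothing but the rat count says that libraries are independent samples. A neighbouring gene of 1 locus is not reported here.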

Additional observations from a re-analysis of the deposited data

Results flagged for a closer look

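Each named site and locus was checked for a library far from the other 3 of its group, by the 95% limit of Dixon's ratio. Of 84 checks 13 were met. Chance alone meets about 1 in 20 such checks, but the named sites include those chosen as most concentrated in 1 library, so the count is not compared with it.

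Several libraries stood apart together with the library of the same number in the other group. At the chromosome 1 site 221154403, control library 2 had 3063 CPM against 226 to 318 in the other controls, and obesity library 2 had 2540 against 217 to 245. At the chromosome 20 site 10955045, control library 3 had 88.1 CPM against 0 to 5.93, and obesity library 3 had 140.2 against 0 to 14.6. At the chromosome 8 site 23027248, control library 3 had 112 CPM against 0 to 5.93, and obesity library 3 had 115 against 0.561 to 2.77.

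Other libraries stood apart in 1 group. At the chromosome 1 site 79871846, obesity library 1 had 274 CPM against 37.4 to 66.3, and control library 2 had 32.8 against 19.1 to 21.3. The locus of that site had 379 CPM in obesity library 1 against 85.7 to 132. At the chromosome 1 site 220891899, obesity library 3 had 204 CPM against 16.6 to 43.7. At the chromosome 18 site 81754919, control library 1 had 44.5 CPM against 9.54 to 15.2. At the chromosome 18 site 70733199, control library 3 had 782 CPM against 550 to 565. The chromosome 2 locus at 221691016 had 374 CPM in obesity library 3 against 502 to 503.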

How the results depend on the processing

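Over the alternatives tried, 527 of 581 values kept their direction and side of the threshold or, for counts of calls, stayed within 1.5 times the reported count. Of these, 450 were log2 fold changes of named sites and loci, most with an adjusted p far from the threshold. Among shares and counts of calls, 77 values were kept, 21 moved and 1 changed sign. Abundant sites past an adjusted p of 0.1 numbered 1, and 0 with filterByExpr and 0 to 1 on leaving out a library. The total at an unadjusted p under 0.01 was 8, and it was 14 by the DESeq2 Wald test, 39 with the replicate block, 3 among sites of at least 1000 reads, 19 among those of at least 100 reads, and 3 to 15 on leaving out a library. Abundant loci past 0.1 numbered 0, against 3 by the Wald test and 1 with a 1 kb gap. Those at an unadjusted p under 0.01 numbered 12, against 35 with the replicate block and 7 to 31 on leaving out a library. The block changed no call at an adjusted p of 0.1 among the abundant sites and loci.

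The difference in the share of reads outside the chromosome 1 cluster ranged from -0.428 to 0.0568 percentage points on leaving out a library. Log2 fold changes that took both signs on leaving out a library ranged from -0.44 to 0.049 at 11971756, from -0.62 to 1.18 at 220891899, from -0.46 to 0.30 at 99523065, from -0.26 to 0.87 at 81754919, from -2.06 to 4.32 at 10955045, from -2.06 to 1.59 at 221154403, from -0.59 to 0.90 at 221157198 and from -4.49 to 3.65 at 23027248, which was at -0.26 with the block. They ranged from -0.35 to 0.22 for the chromosome 14 locus and from -0.11 to 0.20 for the chromosome 6 locus. These fits did not use the block. With the block and all libraries, the log2FC was -0.22 at 221154403, 1.07 at 10955045 and 0.17 at 221157198. The cause of the ranges was not tested. The median abundant site had 477.5 reads over 8 libraries, and the median SD within groups was 0.57 on the log2(CPM + 1) scale.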
